A study of Homo sapiens with 10 samples.

Results

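Het_9 and Het_10 are 2 of 10 RNA-seq libraries made from clones of U2932. U2932 is an established cell line from a patient's diffuse large B cell lymphoma (DLBCL), which arises from mature B cells. They were singled out because they grouped with each other, apart from the other libraries, when gene expression was clustered in an earlier look at the same counts. Here they were set against WT_3, WT_4, WT_5, Het_6 and Het_7 (the 5 comparison libraries), and also against Het_6 and Het_7 alone, which carry the same genotype label. WT_1, WT_2 and Het_8 form a separate cluster and were left out.

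The study compared clones with both copies of CREBBP (CREBBP+/+, here WT_3, WT_4 and WT_5) with heterozygous clones (CREBBP+/-, here Het_6, Het_7, Het_9 and Het_10). All were grown untreated in the same serum-supplemented medium. The means by which the CREBBP allele was altered, and the derivation of the clones, are not stated. The labelled heterozygous clones are numbered differently from the columns Het_6 to Het_10, so a column could not be tied to a labelled clone, and the labels do not say that libraries came from separate cultures.

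CREBBP is a histone acetyltransferase that serves as a coactivator for many transcription factors, and loss of a copy is common in germinal centre lymphomas. In germinal centre B cells the repressor BCL6 holds back plasma cell differentiation, which PRDM1 drives, and CREBBP acts on enhancers that BCL6 and its corepressors silence. A lymphoma line can hold several subclones that share a founding immunoglobulin rearrangement and differ in chromosome copies, in silenced genes and in stage-specific expression.

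Het_9 was the shallowest library, with 10615977 counts, and Het_10 had 21137297. The 5 comparison libraries held 18208662 to 23020694 counts. Of the 21174 genes in the table, 12398 passed a filter on low counts. Because the pair was chosen from these same values, every difference below is a description and carries no test. A gene was called higher (or lower) when both Het_9 and Het_10 lay above (or below) every comparison library and the fitted log2 fold change was at least 1 in size. Levels are given in CPM, the counts of a gene per 1000000 counts of its library after TMM scaling, and are not adjusted for gene length. Standard errors (SE) come from the fit and cover the spread between these libraries.

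CREBBP itself, on chromosome 16 (3725054 to 3880713), carried the label. It stood at 62.1 and 81.4 CPM in Het_9 and Het_10, at 72.0 and 78.4 CPM in Het_6 and Het_7, and at 104, 116 and 137 CPM in WT_3, WT_4 and WT_5. All 4 heterozygous libraries lay below the 3 CREBBP+/+ libraries, and the pair overlapped Het_6 and Het_7. The log2 difference was -0.49 (SE 0.25) from the 5 libraries and -0.06 from Het_6 and Het_7. Leaving out Het_9 gave -0.32 and leaving out Het_10 gave -0.71, because the 2 libraries lie apart. EP300, its paralogous acetyltransferase, had 143 and 173 CPM in the pair against 132 to 144 CPM.

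BCL6 did not set the pair low. It had 646 and 670 CPM in Het_9 and Het_10, just above the 532 to 617 CPM of the 5 libraries (log2 difference 0.20, SE 0.08), while the libraries left out had 242, 248 and 319 CPM. By BCL6 the pair therefore belonged with the high libraries. PRDM1, the plasma cell regulator that BCL6 represses, had 9.38 and 10.9 CPM against 40.1 to 67.0 CPM (log2 difference -2.28, SE 0.22). Its levels in the pair lay between those of the 5 libraries and the 1.79 to 3.72 CPM of the 3 libraries left out. The same immunoglobulin heavy variable gene, IGHV4-39, took most of the counts of the 10 variable genes that passed the filter in all 7 libraries, at 405 and 490 CPM in the pair and 539 to 828 CPM elsewhere. The next, IGHV4-28, had at most 40.3 CPM in any of them.

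Across the transcriptome, 528 genes (4.26% of those tested) were higher and 418 (3.37%) were lower in Het_9 and Het_10 than in the 5 libraries, 946 in all (7.63%). Against Het_6 and Het_7 alone, 672 genes (5.42%) were higher and 602 (4.86%) lower, 1274 in all (10.3%). The comparisons share Het_9, Het_10, Het_6 and Het_7. The no-overlap rule is easier to meet against Het_6 and Het_7 than against the 5 libraries that include them. The totals therefore do not show which libraries lay further from the pair. Of the 528 higher genes, 461 were also called higher against Het_6 and Het_7, and of the 418 lower genes 364 were also called lower. For the other 67 and 54 genes the difference from the libraries with the same label missed the limit. Since Het_6 and Het_7 are among the 5, ranges could not overlap for these genes, and calls in opposite directions were not possible. The median log2 difference over all genes tested was -0.01, which the TMM scaling largely sets.

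Many differences were large. Among the higher genes 229 differed at least 4-fold and 124 at least 8-fold. Among the lower genes the counts were 146 and 64. For 318 of the higher genes the 5 libraries averaged under 1 CPM, and for 161 of the lower genes the pair did, so a large share of the list was close to silent on the low side. A gene that passed the filter only through the libraries where it is high had to differ. The pair itself was close: among genes with a mean of at least 5 CPM, 32 differed at least 2-fold between Het_9 and Het_10. Between a library of the pair and a comparison library the number was 398 to 531 (median 462), and within the 5 it ran from 25 to 281. WT_3, Het_6 and Het_7 differed from each other in 25 to 36 genes, which is as close as the pair, and WT_4 from WT_5 in 100. Between these 3 libraries and WT_4 or WT_5 the number was 174 to 281.

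**Figure D1:**
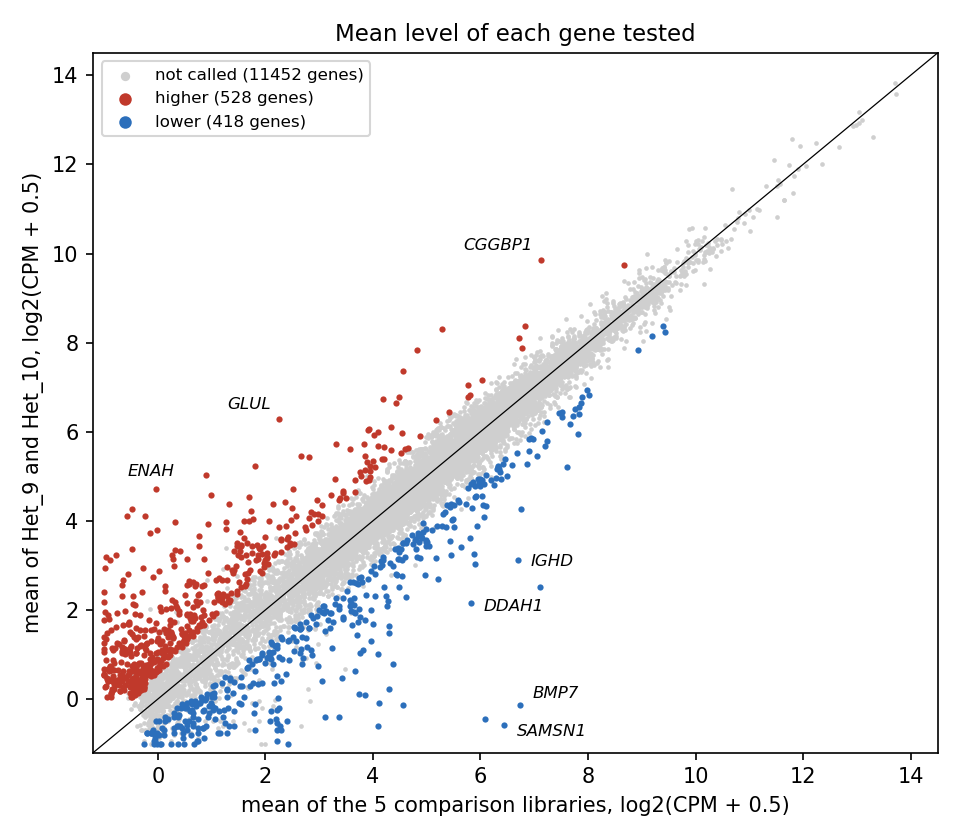
Each point is a gene that passed the filter, placed by its mean log2(CPM + 0.5) in the 5 comparison libraries (horizontal) and in Het_9 and Het_10 (vertical). The 528 higher genes (red) crowd at the left edge, where the 5 libraries are near 0, and the 418 lower genes (blue) reach further along the horizontal axis, with BMP7 and SAMSN1 near the floor in the pair.

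Not all of these genes were particular to the pair within the series. Of the higher genes 352 (66.7%) were also above WT_1, WT_2 and Het_8, in 39 those libraries were higher still, and in 137 the ranges overlapped. Of the lower genes 194 (46.4%) were also below those libraries, in 84 those libraries were lower still, and in 140 the ranges overlapped.

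The 6 genes given as markers of the pair were ENAH, MAP2, HOXA7, MVB12B, JUN and NCAM1, and all 6 were higher against both comparisons. Their levels were among the values that picked out the pair, so they are shown as a description. In a bulk sample, more cells that express a gene and more RNA per cell cannot be told apart.

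ENAH, an actin regulator at the leading edge of moving cells (chromosome 1, 225486765 to 225653142), had 23.6 and 28.1 CPM in Het_9 and Het_10. The 5 libraries had 0.318, 0.388, 0.420, 0.602 and 0.684 CPM (WT_3, WT_4, WT_5, Het_6, Het_7). None of the 5 came near the pair, and the log2 difference was 5.72 (SE 0.23), or 5.32 from Het_6 and Het_7. MAP2, a protein that stabilises microtubules in neurons (chromosome 2, 209424047 to 209734147), had 14.2 and 15.4 CPM against 0.720 to 0.946 CPM in the CREBBP+/+ libraries. Het_6 and Het_7 had 3.18 and 1.47 CPM of MAP2, so the heterozygous libraries lay nearest to the pair, with log2 differences of 3.37 (SE 0.49) from the 5 and 2.66 from these 2.

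HOXA7, a homeobox transcription factor of the HOXA cluster (chromosome 7, 27153716 to 27157936), had 11.3 and 8.36 CPM in the pair and 0.0488 (Het_7) to 0.559 CPM (Het_6) elsewhere. The log2 difference of 5.38 (SE 0.54) became 6.09 without Het_6. MVB12B, a subunit of the ESCRT-I complex that sorts cargo into multivesicular bodies (chromosome 9, 126326829 to 126507041), had 9.38 and 10.05 CPM in the pair. WT_3 and Het_6 had 1.27 and 1.46 CPM of it, and WT_4, WT_5 and Het_7 had 0.277, 0.105 and 0.586 CPM. The log2 difference was 3.67 (SE 0.64).

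JUN, a subunit of the transcription factor AP-1 (chromosome 1, 58776845 to 58784048), had 17.4 and 18.8 CPM in the pair and 2.31 to 4.38 CPM in the 5 libraries (log2 difference 2.68, SE 0.24). NCAM1, a neural cell adhesion molecule that also marks natural killer cells (chromosome 11, 112961275 to 113278436), had 43 and 56 counts (3.99 and 2.63 CPM) in the pair against 0 to 4 counts in each of the 5 (log2 difference 5.13, SE 0.57). Among the libraries left out, Het_8 had 11.4 CPM of ENAH and 18.3 CPM of JUN, so of the 6 markers JUN did not separate the pair from Het_8. For MAP2, HOXA7, MVB12B and NCAM1 the highest of WT_1, WT_2 and Het_8 was 1.64, 1.69, 1.36 and 0.0545 CPM.

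**Figure D2:**
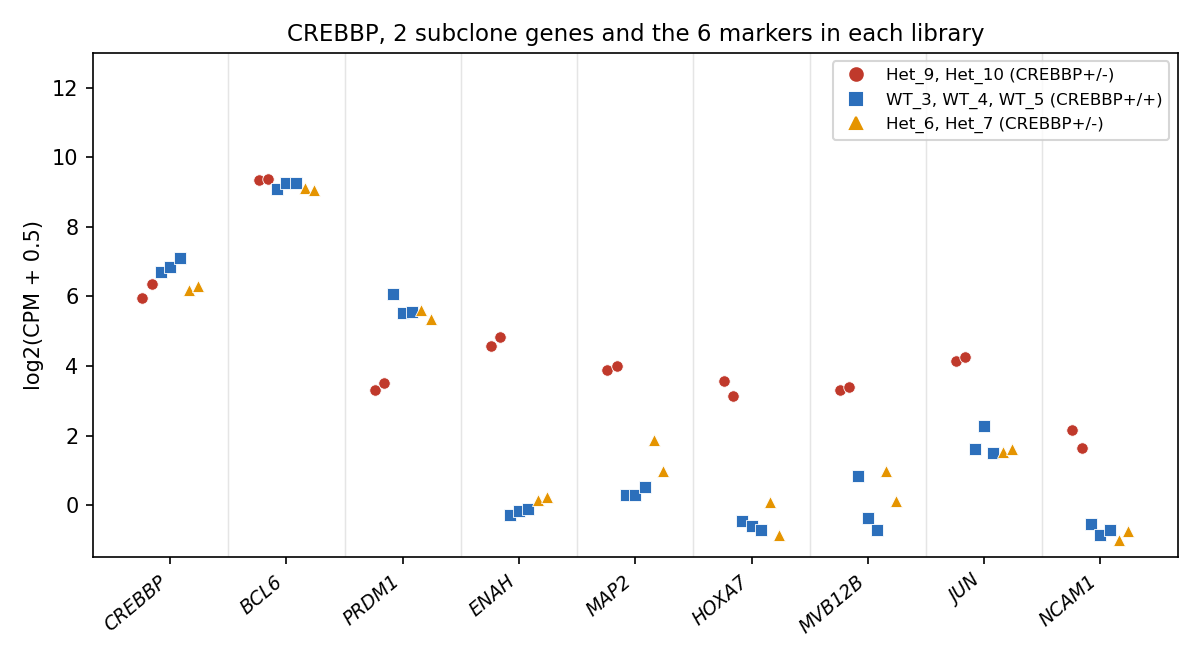
Level of CREBBP, BCL6, PRDM1 and the 6 markers in each of the 7 libraries, as log2(CPM + 0.5), with a point per library. Het_9 and Het_10 (red) lie with Het_6 and Het_7 for CREBBP and close to all 5 libraries for BCL6, below the 5 for PRDM1, and above them for each marker.

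The promoters of ENAH, HOXA7 and MVB12B are shown because these genes were under 1.5 CPM in the 5 libraries. They are marked for CG, the pair of bases at which human DNA is methylated. Sequences are from RefSeq (GRCh38.p14), 250 bases before to 50 after the gene start, 5′ to 3′ on the gene's strand, with each CG in capitals. ENAH is read from chr1:225653074-225653373 (minus strand), HOXA7 from chr7:27156626-27156925 (minus) and MVB12B from chr9:126326579-126326878 (plus). For HOXA7 the RefSeq start lies inside the GENCODE gene given above, so the stretch shown is part of that gene and not the bases before it. The entry used for NCAM1 was not present.
ENAH: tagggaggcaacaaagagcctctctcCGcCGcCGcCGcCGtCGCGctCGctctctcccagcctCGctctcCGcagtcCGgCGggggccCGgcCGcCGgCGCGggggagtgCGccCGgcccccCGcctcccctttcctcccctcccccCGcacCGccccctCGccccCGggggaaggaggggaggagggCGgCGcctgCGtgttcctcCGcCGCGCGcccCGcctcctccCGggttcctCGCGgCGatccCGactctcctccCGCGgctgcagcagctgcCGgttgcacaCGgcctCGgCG
HOXA7: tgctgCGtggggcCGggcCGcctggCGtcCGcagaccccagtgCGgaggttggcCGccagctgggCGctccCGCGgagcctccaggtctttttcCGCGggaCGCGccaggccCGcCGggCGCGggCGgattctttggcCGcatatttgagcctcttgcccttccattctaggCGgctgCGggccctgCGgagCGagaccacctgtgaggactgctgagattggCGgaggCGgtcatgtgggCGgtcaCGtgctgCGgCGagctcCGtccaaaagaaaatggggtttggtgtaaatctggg
MVB12B: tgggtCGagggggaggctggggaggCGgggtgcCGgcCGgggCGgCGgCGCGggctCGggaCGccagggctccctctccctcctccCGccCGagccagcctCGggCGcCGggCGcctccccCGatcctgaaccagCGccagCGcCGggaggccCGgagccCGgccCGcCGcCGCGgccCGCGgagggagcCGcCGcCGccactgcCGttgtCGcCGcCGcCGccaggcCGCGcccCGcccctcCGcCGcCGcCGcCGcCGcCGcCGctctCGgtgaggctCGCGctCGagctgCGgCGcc
The letters CG, which read the same on both strands, occurred 43 times for ENAH, 31 times for HOXA7 and 53 times for MVB12B, against a median of 14 over the 27305 promoters of the table. Fewer were found in 95.1%, 79.6% and 99.4% of those promoters. Methylation was not measured here, and the counts describe the letters only.

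Beyond the markers, the higher genes with the largest differences and at least 5 CPM included several that are better known from neurons and other tissues than from B cells. RIMS2 and SV2B, proteins of the synaptic vesicle release machinery, had 220 and 210 counts in the pair and 1 count each in the 5 libraries. Their ratios were 705 (95% counting interval 125 to 28000) and 673 (120 to 26700). SV2B was uneven in the pair, with 15.1 CPM in Het_9 and 2.21 CPM in Het_10, and its single count elsewhere lay in WT_4. PCLO, a scaffold of the presynaptic release site chosen after its values were seen, had 9.56 and 8.27 CPM, with 2.66 CPM in WT_4 and at most 0.454 CPM in the other 4 (log2 difference 3.70, and 5.35 without WT_4). ESRRG, an orphan nuclear receptor, had 10.2 and 6.15 CPM against at most 0.105 CPM (log2 difference 7.49, SE 0.55).

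HDGFL3 had 16.4 and 17.1 CPM in the pair against 0.0908 to 0.342 CPM, a log2 difference of 6.53 (SE 0.32). DMRT1, a transcription factor of testis development, had 12.4 and 25.3 CPM, and WT_3 was the highest of the 5 at 0.636 CPM. DACT1, an intracellular modulator of Wnt signalling, had 17.3 and 16.1 CPM, with Het_6 the highest of the 5 at 0.989 CPM. TTC39C, PARVG (an integrin-linked adaptor of blood cells), CFAP47, GAS2 (which binds actin and microtubules), ZNF512B and ZNF175 completed the list, each at 2.51 to 15.3 CPM in the pair and at most 1.72 CPM elsewhere. A call as higher against Het_6 and Het_7 was a condition for entering this list.

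Several of these sizes rested on a single library. The log2 difference of DMRT1 was 6.33 and became 7.20 without WT_3, that of TTC39C 6.59 and 7.33 without WT_3, and that of CFAP47 5.27 and 6.59 without WT_3. Without Het_6, DACT1 went from 5.48 to 6.34 and ZNF175 from 4.69 to 6.10. PARVG went from 5.30 to 4.05 without Het_10 and to 5.94 without Het_9. For RIMS2 the single count lay in Het_6, and without it the other 4 libraries were at 0. Each stayed above the limit. GAS2 (5.16) and ZNF512B (4.96) moved by less than 1.5-fold.

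Among the genes that passed the filter, 11 had 0 counts in all 5 libraries, and those named here were chosen after their values were seen. SERTAD4 (at least 141-fold higher), the exocyst subunit EXOC6B (at least 127-fold), the proton-sensing receptor GPR65 (at least 118-fold) and MGMT, the enzyme that repairs O6-methylguanine (at least 64.1-fold), were among them. These bounds set 3 counts as the limit over the 5 libraries together. GPR65 had 1.49 and 4.41 CPM in Het_9 and Het_10, SERTAD4 6.87 and 2.72 CPM, EXOC6B 5.01 and 3.05 CPM and MGMT 2.97 and 1.31 CPM.

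GLUL, glutamine synthetase, was also chosen after its values were seen. It had 80.3 and 74.7 CPM in the pair, 12.4 CPM in WT_3, 7.44 and 1.12 CPM in Het_6 and Het_7, and 0.111 and 0.263 CPM in WT_4 and WT_5. The 5 libraries thus differed widely among themselves and none reached the pair. The log2 difference was 4.14 and became 5.03 without WT_3.

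Genes on the lower side with large differences included signalling proteins. BMP7, a secreted ligand of the TGF-beta family (chromosome 20, 57168753 to 57266641), had 83.6 to 116 CPM in the 5 libraries and 0.557 and 0.282 CPM in Het_9 and Het_10 (log2 difference -8.11, SE 0.27). MAP4K4, a kinase upstream of JNK (chromosome 2, 101696850 to 101894690), had 58.9 to 70.7 CPM against 0.371 and 0.0939 CPM. SAMSN1, an adaptor that dampens B cell activation (chromosome 21, 14485228 to 14658821), had 58.5 to 130 CPM against 0.0928 and 0.235 CPM. For these 3 genes the gap between the pair and the nearest other library was wide, and the values in the pair rest on few reads. The log2 difference of MAP4K4 was -8.43 and became -9.40 without Het_9 and -7.48 without Het_10, and that of SAMSN1 was -8.81 and became -9.77 without Het_10.

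SPSB1 (-6.67, SE 0.37), FAHD2B (-5.13), EFR3B (-4.68, SE 0.26) and DDAH1, an enzyme that clears methylated arginine (-3.84, SE 0.17), were lower to a like extent from every comparison library. DDAH1 had 4.27 and 3.66 CPM in the pair against 49.6 to 67.3 CPM. The value of FAHD2B was -4.43 without Het_10 and -5.79 without Het_9. CYBB, the catalytic subunit of the phagocyte NADPH oxidase, had 0.743 and 0.611 CPM against 7.42 to 28.2 CPM. FEZ1 had 0.464 and 0.423 CPM against 4.73 to 26.7 CPM. ARHGAP44 had 1.21 and 1.27 CPM against 8.88 to 25.5 CPM. INF2, a formin that assembles actin (-5.59), became -7.53 without Het_9 and -4.39 without Het_10.

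SASH3, an adaptor of lymphocyte signalling on the X chromosome (129779949 to 129795201), differed within the pair. Het_10 had 0 CPM of it and Het_9 10.5 CPM, and the 5 libraries had 87.9 to 202 CPM. The log2 difference of -5.0 became -3.72 without Het_10 and -14.47 without Het_9, where the remaining library is at 0 and the fitted value is no bound. SOCS3 and SYNGR1 differed widely among the 5. SOCS3, a feedback inhibitor of cytokine signalling, had 0.557 and 0.282 CPM in the pair, 0.736 and 1.61 CPM in WT_5 and WT_4, and 25.6 to 54.5 CPM in Het_7, Het_6 and WT_3. The pair lay just under WT_5, so the log2 difference of -5.91 (SE 2.20) described mostly the other libraries, and it was -5.31 without WT_3. SYNGR1 had 0.557 and 0.611 CPM in the pair and 3.76 to 27.9 CPM in the others (-4.42, SE 1.11). Of the genes at 0 counts in both Het_9 and Het_10, CCDC149 was at least 49.7-fold lower, with 1.68 to 8.81 CPM in the 5 libraries, and was chosen after its values were seen.

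Groups of genes were then read from lists, each counted against the shares of 4.26% higher and 3.37% lower over all genes tested. HOX genes specify position in the embryo and stage in blood cells. Of 39 HOX genes counted, 15 passed the filter, and of these 5 were higher and 1 lower (median log2 difference 0.49). HOXA7, HOXB4, HOXB7 and HOXC5 passed only with the help of Het_9 and Het_10, where they are high. The share of higher HOX genes is therefore partly set by the filter. HOXB4, known for expanding blood stem cells, had 39 counts in the pair and 1 in the 5 libraries, a ratio of 125 (95% counting interval 21.2 to 5060), and that count lay in WT_4. HOXB7 had 4.55 and 3.24 CPM against 0 to 0.454 CPM (3.99, SE 0.65), and HOXC5 0.836 and 0.517 CPM against 0 to 0.136 CPM. HOXC6 was higher against the 5 libraries but not against Het_6 and Het_7. HOXA11 went the other way, with 0.650 and 0.564 CPM against 1.21 to 2.80 CPM. The genes therefore came from 3 HOX clusters, on chromosomes 7, 17 and 12. Of 7 cofactors and related homeobox genes, 2 were lower and 0 higher. TGIF1, a repressor of TGF-beta targets, had 20.1 and 20.5 CPM against 31.2 to 53.8 CPM (-1.10). PBX4, at most 3.05 CPM, had -3.12, and -4.24 without Het_10.

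Adhesion molecules were called more often higher than lower. NCAM1, PECAM1, ITGA1 and ITGA2 passed the filter only with the help of Het_9 and Het_10, so their calls are partly set by the filter. Of 18 immunoglobulin-type and cadherin-related molecules 5 were higher and 0 lower (median 0.39): NCAM1, PLEKHA7, PECAM1, MCAM and CTNND1. MCAM, an endothelial and melanoma adhesion molecule, had 9.75 and 8.12 CPM against 2.63 to 5.18 CPM (1.17, SE 0.25). PLEKHA7, an adherens junction protein, had 7.80 and 13.9 CPM against 0.0526 to 6.37 CPM (2.24), and without Het_6 its difference was 3.09. Of 15 integrins and related receptors 4 were higher and 1 lower (median 0.36). ITGA4, the alpha subunit of the lymphocyte integrin VLA-4 (chromosome 2, 181457202 to 181538940), had 38 and 26.4 CPM against 0.210 to 2.78 CPM, a log2 difference of 4.53 (SE 0.61) and of 4.14 from Het_6 and Het_7. The neighbouring collagen receptor genes ITGA1 and ITGA2 on chromosome 5 were both higher at low levels. ITGA1 had 26 counts in the pair and 3 in the 5 (ratio 27.8, 95% counting interval 8.52 to 143), and ITGA2 1.02 and 0.892 CPM against at most 0.195 CPM (2.85). ITGB4, an epithelial integrin subunit, was lower.

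Cytoskeletal genes went both ways. Of 25 microtubule genes 5 were higher and 1 lower (median -0.02). TUBB3, the tubulin of neurons, had 94.1 and 119 CPM against 10.4 to 25.3 CPM (2.57, SE 0.31), and MAP1A 18.7 and 19.7 CPM against 2.82 to 8.57 CPM (1.89, SE 0.33). TUBB2B was lower (5.48 and 7.56 CPM against 15 to 30.3 CPM). Of 23 actin regulators 2 were higher and 3 lower (median 0.12). Besides ENAH, the filamin FLNC was higher, with 26 counts against 2 (ratio 41.7, 95% counting interval 10.4 to 362). FLNC passed the filter only through Het_9 and Het_10, so its call is partly set by the filter. The calponin CNN3 had 6.68 and 5.35 CPM against 13.7 to 43.9 CPM (-2.61), and PALLD, a scaffold of actin bundles, 8.08 and 14.7 CPM against 15.7 to 38.2 CPM (-1.42). ABLIM1 was lower as well. Among 16 ESCRT-I subunits and partners 1 was higher (MVB12B) and 1 lower: VPS37B, with 0.928 and 0.939 CPM against 1.38 to 9.97 CPM. Its difference was -2.14 and -1.53 without WT_4, and it was not called against Het_6 and Het_7.

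Of 24 AP-1 and immediate early genes 4 were higher and 2 lower (median 0.19). FOSB, a partner of JUN, had 15.7 and 15.5 CPM against 3.27 to 8.59 CPM (1.62, SE 0.33). ATF3 and EGR1 were the others, and EGR1 (1.03) fell under the limit without Het_10, WT_3, WT_5 or Het_7 (lowest 0.89). FOS had 18.5 and 17.0 CPM against 5.99 to 16.4 CPM, with a log2 difference of 0.58 that missed the limit. BATF, the AP-1 member that acts with IRF4 in activated lymphocytes, was lower, with 8.08 and 9.11 CPM against 16.3 to 35.0 CPM (-1.68, SE 0.36). IER3 was lower at no more than 2.003 CPM throughout.

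Of 24 B cell identity genes 0 were higher and 3 lower (median -0.30). CR2, the complement receptor CD21, had 9.75 and 12.2 CPM against 22.8 to 39.7 CPM (-1.51, SE 0.25). PAX5, which maintains B cell identity, had 456 and 496 CPM against 566 to 730 CPM (-0.46), and MS4A1, which encodes CD20, had 1335 and 1242 CPM against 1196 to 1580 CPM (-0.15), so both remained well expressed in the pair. Of 23 germinal centre genes 0 were called in either direction (median -0.14). The members with the largest differences were LMO2 (48.6 and 34.1 CPM against 44.9 to 125 CPM, -1.02) and MME, which encodes CD10 (29.4 and 44.3 CPM against 69.2 to 76.5 CPM, -0.97). Of 23 B cell receptor signalling genes 1 was called, the exchange factor VAV3, higher at 36.3 and 42.7 CPM against 9.99 to 19.6 CPM (1.47, SE 0.22).

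Of 20 plasma cell genes 3 were lower and 0 higher (median -0.16): PRDM1, SDC1 and ELL2. SDC1, the plasma cell surface marker CD138, had 1.76 and 2.63 CPM against 7.74 to 17.7 CPM (-2.48, SE 0.42). ELL2, an elongation factor that favours secreted immunoglobulin mRNA, had 18.1 and 17.4 CPM against 22.7 to 51.3 CPM (-1.18). Of 13 immunoglobulin constant regions 9 were lower and 0 higher (median -1.22), and 8 were lower than in Het_6 and Het_7. IGHD had 6.50 and 9.91 CPM against 79.3 to 133 CPM (-3.61, SE 0.28). IGHM, the mu heavy chain of membrane and secreted IgM, had 5562 and 6941 CPM against 8932 to 11837 CPM (-0.69) and missed the limit. IGHA1 had 67.2 and 55.3 CPM against 136 to 346 CPM (-1.87). IGHG1 had 248 and 319 CPM against 537 to 645 CPM (-1.04, and -0.87 without Het_9). IGLC3 had 3 counts in the pair against 178, a ratio of 18.5 lower (95% counting interval 6.23 to 90.6). The IGHG and IGHA genes are near-identical, so reads could be divided among them. IGHG2 and IGHG4 were called at under 2 CPM (-3.26 and -2.48). IGLC3, IGHG2 and IGHG4 passed the filter only through the 5 libraries, where they are high. The share of lower constant regions is therefore partly set by the filter.

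Of 17 MHC class II genes 5 were lower and 0 higher (median -0.60), and 2 were lower against Het_6 and Het_7 (median -0.34). HLA-DQA1 had 44.3 and 42.2 CPM, Het_6 and Het_7 104 and 117 CPM, and the CREBBP+/+ libraries 123 to 160 CPM (-1.61, SE 0.19, and -1.35 from Het_6 and Het_7). HLA-DRB5 had 8.91 and 8.12 CPM, Het_6 and Het_7 21.7 and 25.2 CPM, and the CREBBP+/+ libraries 35.5 to 52.8 CPM. The heterozygous Het_6 and Het_7 thus lay between. HLA-DRB1 (-1.43) and HLA-DQB1 (-1.32) were called against the 5 libraries and had -0.82 and -0.77 against Het_6 and Het_7. HLA-DRB1 and HLA-DRB5, and HLA-DQA1 and HLA-DQA2, are close paralogs that could share reads. CIITA, their transactivator, had 71.9 and 85.4 CPM against 106 and 112 CPM in Het_6 and Het_7 and 137 to 169 CPM in the CREBBP+/+ libraries (-0.79). Of 18 MHC class I genes 0 were called (median -0.05). HLA-B had 374 and 361 CPM against 602 to 828 CPM (-0.94), and ERAP2 -0.85.

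**Figure D3:**
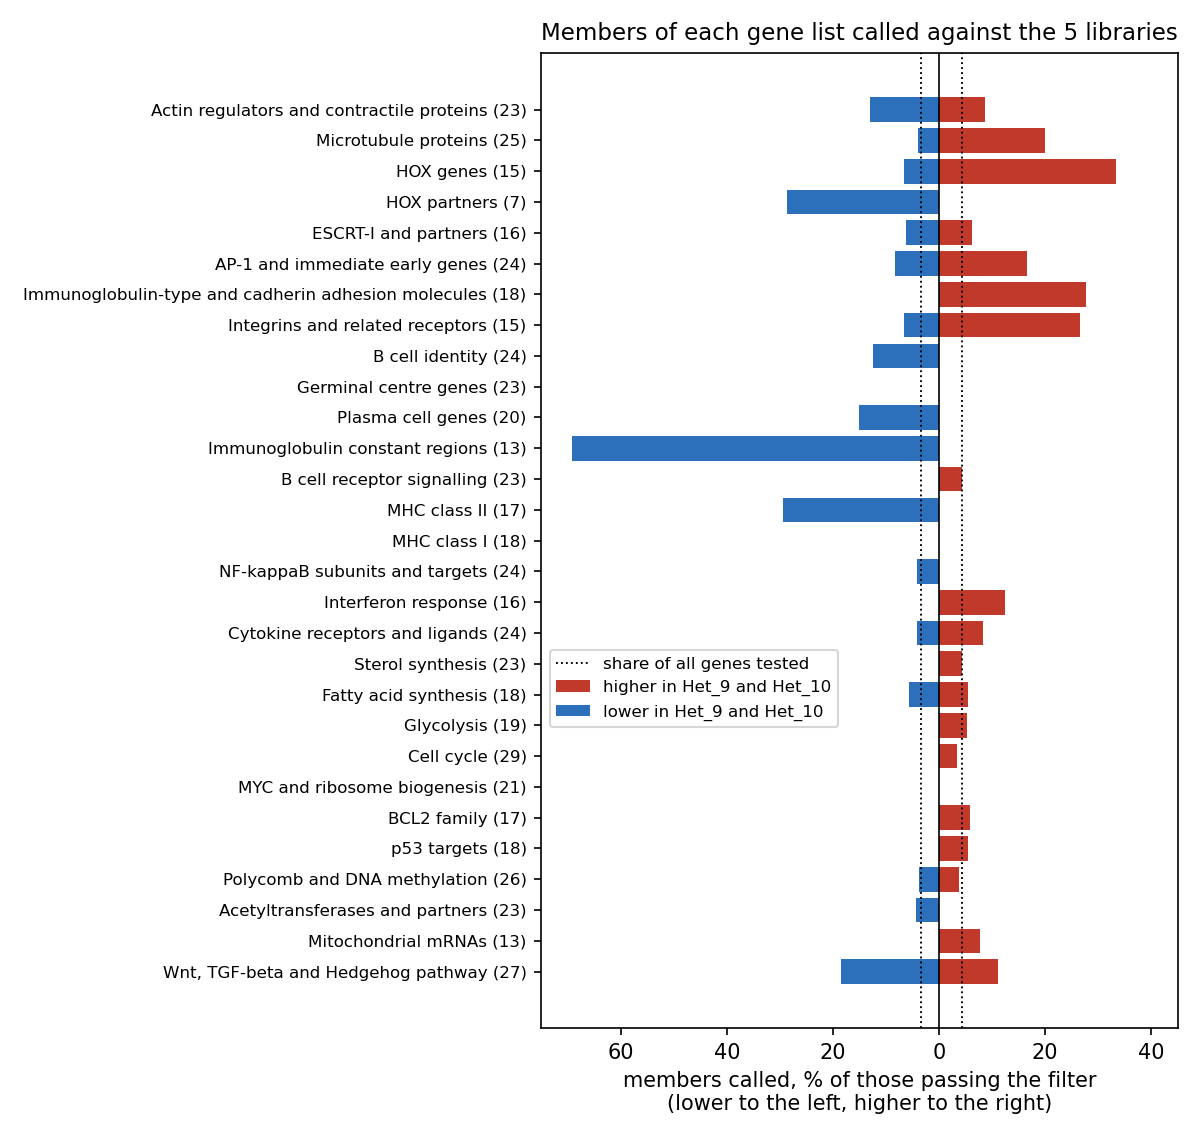
Percentage of the members of each pathway or gene group list (cell type marker lists are not drawn) that passed the filter (number in brackets) and were called higher (red, to the right) or lower (blue, to the left) in Het_9 and Het_10 than in the 5 libraries. Dotted lines mark the shares over all genes tested, 4.26% higher and 3.37% lower. Of the lists drawn, immunoglobulin constant regions reach furthest left, with 9 of 13, and HOX genes furthest right, with 5 of 15. The HOX share is partly set by the filter, which HOXA7, HOXB4, HOXB7 and HOXC5 passed only with the help of Het_9 and Het_10. So is the immunoglobulin share, since IGLC3, IGHG2 and IGHG4 passed the filter only through the 5 libraries.

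In the Wnt, TGF-beta and Hedgehog list of 27 genes 3 were higher and 5 lower (median -0.15). Besides BMP7, the ligand WNT5B was lower, with 0.650 and 0.986 CPM against 1.68 to 12.2 CPM (-3.20). WNT5A had 2 counts in the pair, both in Het_9, against 173, a ratio of 27.0 lower (95% counting interval 7.36 to 225). ID3 and ID4, inhibitors of basic helix-loop-helix factors, were higher, at 81.2 and 55.2 CPM against 16.6 to 23.8 CPM (1.79) and at 66.5 and 38.8 CPM against 8.99 to 16.9 CPM (1.93). TCF7L2, the DNA-binding partner of beta-catenin, was higher at low levels (2.60 and 0.798 CPM against at most 0.409 CPM), with 2.62, which became 1.58 without Het_9 and 3.27 without Het_10. TCF7L2 passed the filter only through Het_9 and Het_10, and WNT5A only through the 5 libraries, so these calls are partly set by the filter. Of 24 cytokine receptors and ligands 2 were higher and 1 lower (median 0.03). IL2RB had 1.21 and 0.892 CPM in the pair, 1.997 and 2.49 CPM in WT_5 and WT_4, and 13.6 to 28.8 CPM in the other 3 (-3.58, and -2.97 without WT_3). FAS, the death receptor, had 27.1 and 22.0 CPM against 8.17 to 17.0 CPM. Its difference of 1.00 fell under the limit without Het_9, WT_3, WT_4 or Het_6 (lowest 0.84). IL6R (1.11) was at the limit too, with 0.89 without WT_4.

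In the NF-kappaB list 1 of 24 was called, TRAF1, which was lower (27.3 and 28.6 CPM against 52.5 to 76.4 CPM, -1.25, SE 0.16) and lies in a segment described below. Of 16 interferon response genes 2 were higher and 0 lower, while the median was below 0 (-0.32). OAS3 had 43.1 and 37.8 CPM against 9.77 to 25.9 CPM (1.38), and IFI6 1.86 and 1.46 CPM against at most 0.999 CPM. Of 17 BCL2 family genes 1 was called: HRK, a BH3-only activator of cell death, at 13.6 and 17.2 CPM against 1.66 to 3.52 CPM (2.5, SE 0.25). BCL2 itself had 1014 and 1032 CPM against 475 to 659 CPM, a log2 difference of 0.90 that did not reach the limit although the ranges did not overlap.

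Metabolic and growth lists held few called genes, but some leaned to a side. Above 0 lay 18 of 23 sterol synthesis genes, and below 0 lay 14 of 19 glycolysis genes and 21 of 29 cell cycle genes. Of the 12318 tested genes with a matched position, 6054 lay above 0 and 6264 below. In sterol synthesis 1 of 23 was higher (median 0.28), MSMO1 with 35.6 and 26.5 CPM against 13.8 to 17.4 CPM (1.05, and 0.82 without Het_9). In fatty acid synthesis 1 of 18 was higher and 1 lower (median 0.02). The desaturase SCD5 had 18.5 and 22.1 CPM against 5.59 CPM in Het_6, 3.22 CPM in Het_7 and at most 0.954 CPM in the CREBBP+/+ libraries (3.31, and 4.17 without Het_6). ACSS2, which makes acetyl-CoA from acetate, had 0.743 and 1.03 CPM against 4.82 to 22.3 CPM (-3.47). In glycolysis 1 of 19 was higher (median -0.10), the glucose transporter SLC2A3 with 7.61 and 6.86 CPM. WT_3 had 1.45 CPM of it and the other 4 at most 0.111 CPM, and without WT_3 the difference of 4.38 became 7.001. SLC2A3 passed the filter only with the help of Het_9 and Het_10.

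Of 29 cell cycle genes 1 was higher (median -0.09), CDKN2B (3.34 and 5.07 CPM against 0.946 to 3.03 CPM; 1.30, and 0.95 without Het_10). Of 21 MYC and ribosome biogenesis genes 0 were called (median 0.10). MYC had 28.8 and 26.8 CPM in the pair, 28.0 and 29.5 CPM in WT_5 and WT_4, and 47.3 to 52.7 CPM in the other 3. BOP1 had -0.56. Of 18 p53 targets 1 was higher (FAS). Among 26 Polycomb and DNA methylation genes 1 was higher and 1 lower (median -0.06). DNMT3A, a de novo DNA methyltransferase, had 1.02 and 1.78 CPM against 2.59 to 5.27 CPM (-1.37, SE 0.39). PCGF2, a Polycomb ring finger protein, had 1.21 and 0.611 CPM against 0 to 0.409 CPM (2.39, and 3.09 without WT_3). PCGF2 passed the filter only through Het_9 and Het_10. Of 23 acetyltransferases and partners 1 was lower, CITED4, a binding partner of CREBBP and EP300, at under 1 CPM in all libraries. Its difference of -1.34 was -3.05 without Het_10 and -0.78, under the limit, without Het_9. Of 13 mitochondrial mRNAs 1 was higher (median 0.11): MT-ND6, the one of them read from the opposite strand, at 297 and 366 CPM against 76.8 to 149 CPM (1.55, SE 0.21). Whether counting used strand is not stated.

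Markers of other cell types were at or near 0 for most entries. Of 47 list entries for T, natural killer, myeloid, stromal, epithelial, endothelial and neural cells, 17 had 0 counts in all 7 libraries, among them CD3D, CD2, CD5, NKG7, KLRD1, S100A8, S100A9, COL1A2, COL3A1, KRT8, KRT19, CDH5, KDR, RBFOX3 and STMN2. Summed T cell markers stood at 23 and 20 CPM in the pair against 13.2 to 28.7 CPM, nearly all from TRAC (22.5 and 18.5 CPM), and CD8A was at most 1.08 CPM. Outside the list, some T cell receptor genes were called higher in the pair. They were TRAV2, TRAV18, TRAV19 and TRAV36DV7 on chromosome 14, and TRBJ2-3 and TRBC2 on chromosome 7. Summed epithelial markers stood at 23.1 and 23.3 CPM against 20.1 to 27.1 CPM, nearly all from EPCAM. Myeloid markers summed to 0.928 to 1.27 CPM in the pair against 0.525 to 1.14 CPM, with CD14 at 0.836 and 0.986 CPM.

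Neural, stromal, natural killer and endothelial lists were higher in the pair through few genes. Neural markers summed to 110 and 136 CPM against 11.5 to 27.0 CPM, from TUBB3, MAP2 and SYP, a synaptic vesicle protein (1.95 and 1.97 CPM against 0.0430 to 0.388 CPM; 3.76, and 4.46 without WT_4). SYP passed the filter only through Het_9 and Het_10. RBFOX3, STMN2 and DCX, which define neurons, had at most 1 count in a library. Stromal markers summed to 2.49 to 4.08 CPM against 0.731 to 1.5 CPM. DCN, a proteoglycan of connective tissue, had 14 and 19 counts in the pair and 0 elsewhere (at least 35.3-fold higher). LUM, another proteoglycan of connective tissue, did not pass the filter, with 4 and 11 counts in the pair and 0 elsewhere. COL1A1 was higher at about 1 CPM (1.26, and 0.99 without Het_9), and COL1A2, COL3A1 and POSTN had 0 counts. For natural killer cells, NCAM1 alone passed the filter. Endothelial markers summed to 0.892 to 1.58 CPM against 0.473 to 0.720 CPM, from PECAM1 (1.70). CLDN5, below the filter, went the other way, with 0 counts in the pair and 1 to 8 counts in each of the 5. The part of other cells in these differences was not tested.

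Some of the differences lay side by side on chromosomes. The regions below were chosen after their values were seen. With genes binned in steps of 20 Mb, 151 bins held at least 20 genes, and in 140 of them the median log2 difference lay between -0.3 and 0.3. Both bins at or below -0.5 were on the short arm of chromosome 5. The 5 bins at or above 0.4 lay on chromosomes 13 and 14.

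On the short arm of chromosome 5, 78 genes from 191495 to 44820428 had a median of -1.02, and 75 of the 78 lay below 0. Het_9 and Het_10 each had a median of -0.98 from the mean of the 5 libraries, whose own medians ran from -0.08 (WT_4) to 0.09 (Het_7). Against Het_6 and Het_7 the median was -1.06. Of these genes 41 were called lower and 1 higher, NKD2 (3.11), so they made up 41 of the 418 lower genes. SDHA, a subunit of respiratory complex II, had 92.1 and 88.4 CPM against 195 to 226 CPM (-1.26). DROSHA, the nuclease that starts microRNA processing, had 45.2 and 46.3 CPM against 95.6 to 108 CPM (-1.15). NNT, the mitochondrial transhydrogenase, had 33.6 and 30.1 CPM against 80.5 to 112 CPM (-1.497). TERT, the catalytic subunit of telomerase, was further down, with 1.39 and 1.64 CPM against 13.2 to 20.3 CPM (-3.43). These values describe RNA, and DNA copies were not measured.

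Chromosome 13 and part of chromosome 14 were shifted the other way. The 213 genes tested on chromosome 13 had a median of 0.49, and 181 lay above 0. Het_9 and Het_10 had medians of 0.52 and 0.48, and the 5 libraries -0.08 to 0.08. Of these genes 21 were called higher and 3 lower. MIR17HG, the host transcript of the oncogenic microRNA cluster on this chromosome, had 13.6 and 14.4 CPM against 3.49 to 5.26 CPM (1.72). On chromosome 14 from 20256558 to 39432466, 130 genes had a median of 0.49 (16 higher, 2 lower). On the same chromosome from 100143957 to 106791233, where the immunoglobulin heavy chain locus lies, 72 genes had a median of -0.37 (14 lower, 1 higher).

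**Figure D4:**
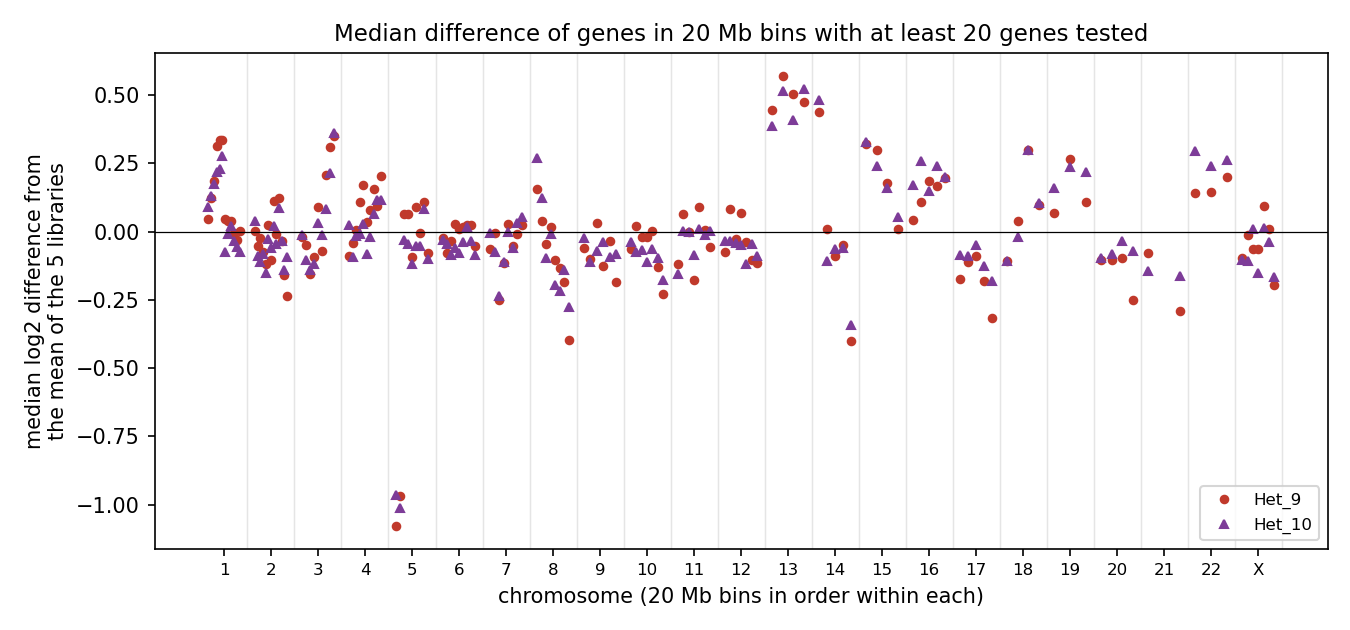
Median log2 difference of Het_9 (circles) and Het_10 (triangles) from the mean of the 5 comparison libraries, for each 20 Mb bin with at least 20 genes tested, with bins in order within each chromosome. Bins on the short arm of chromosome 5 lie near -1, those of chromosome 13 near 0.5, and both libraries follow the same course.

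A shorter segment of chromosome 3, from 87227271 to 88168729, held large differences in well expressed genes. All 4 genes that passed the filter there were higher. CHMP2B, an ESCRT-III subunit, had 331 and 298 CPM against 32.8 to 42.9 CPM (3.04, SE 0.11). CGGBP1, a protein that binds CGG repeats, had 974 and 870 CPM against 133 to 147 CPM (2.72, SE 0.07). C3orf38 had 231 and 221 CPM against 26.3 to 31.1 CPM (3.02, SE 0.08), and ZNF654 181 and 150 CPM against 21.6 to 25.6 CPM (2.85, SE 0.10). ZNF654 overlaps CGGBP1, so their reads may be shared. The nearest tested gene before the segment, GBE1, was level, with 21.2 and 22.3 CPM against 18.9 to 21.1 CPM (0.11, SE 0.10). GBE1 ends at 81761645, well before the segment, and no gene after C3orf38 is given, so the edges were not located.

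On chromosome 9, 5 neighbouring genes from 120902393 to 121332843 were all lower, with a median of -1.22. After TRAF1 came C5, a complement component (-1.22), CNTRL, a centrosomal protein (56.4 and 57.5 CPM against 118 to 133 CPM, -1.14, SE 0.08), RAB14, a small GTPase of endosomes (42.0 and 40.4 CPM against 85.6 to 89.9 CPM, -1.08, SE 0.07), and the actin-severing protein GSN (42.7 and 33.1 CPM against 76.2 to 128 CPM, -1.34). The gene before them, PHF19, had -0.41 (SE 0.08), and the gene after, STOM, 0.15 (SE 0.25). The ranges of CNTRL and RAB14 in the pair and in the 5 libraries were each narrow and far apart.

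**Figure D5:**
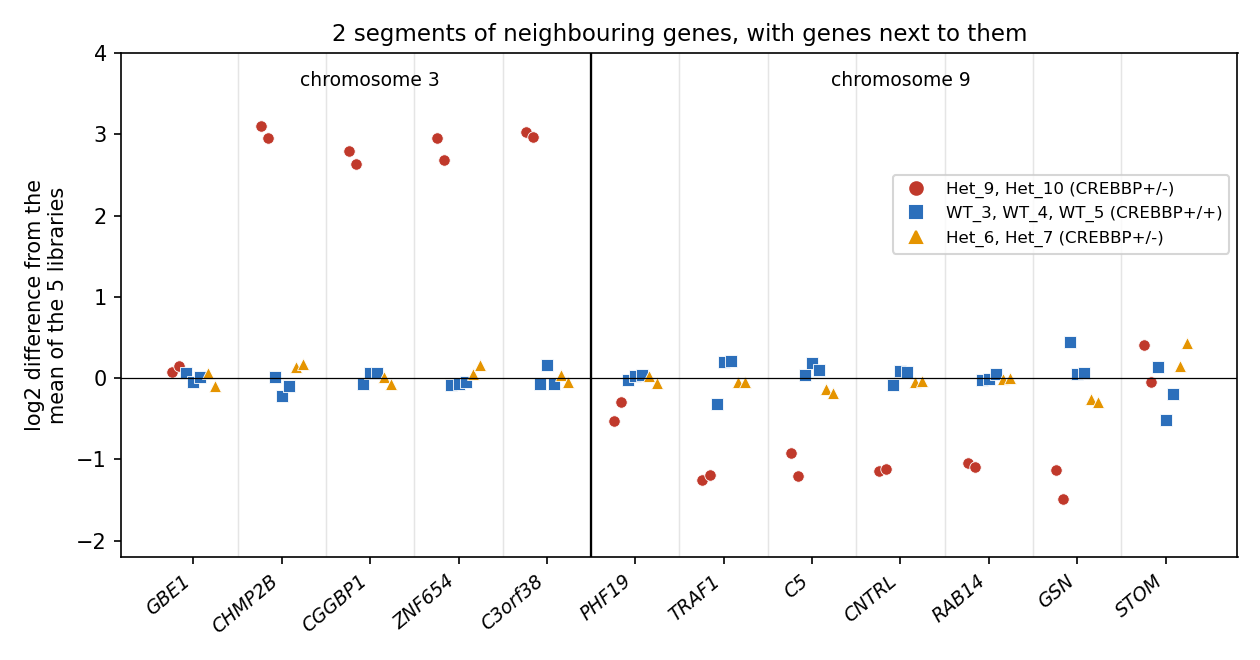
Log2 difference of each library from the mean of the 5 comparison libraries, for the segments on chromosomes 3 and 9 and flanking genes. Genes are in genome order, and values are from log2(CPM + 0.5). GBE1 lies well before its segment, and no gene after C3orf38 is drawn. In Het_9 and Het_10 (red) the 4 genes from CHMP2B to C3orf38 lie near 3 and the 5 genes from TRAF1 to GSN near -1, while GBE1 and STOM lie near 0.

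Runs of at least 3 neighbouring tested genes called in the same direction numbered 13 on the higher side (51 genes) and 10 on the lower side (45 genes). The longest, with 8 genes, was the protocadherin beta cluster on the long arm of chromosome 5 (141094606 to 141249365). These single-exon genes encode cadherin-type molecules that neurons use to tell self from other cells. The table held 16 of them, of which 7 passed the filter and all 7 were higher, while the other 9 each had at most 11 counts in the pair. All but PCDHB9 passed the filter only through Het_9 and Het_10, so they had to lie higher there. PCDHB2 had 105 counts in the pair and 1 in the 5 (ratio 337, 95% counting interval 59.1 to 13400), and that count lay in Het_6. PCDHB16 had 56 and 0 (at least 59.8-fold higher). PCDHB9 had 7.06 and 5.26 CPM against 0.263 to 0.635 CPM (3.78, SE 0.36). PCDHB10, PCDHB13, PCDHB14 and PCDHB15 had log2 differences of 4.07, 3.01, 2.77 and 2.20 at 0.743 to 1.39 CPM in the pair. PCDHB3, PCDHB4 and PCDHB5, below the filter, had 11, 8 and 5 counts in the pair and 0 in the 5. Members of the cluster resemble each other, so some reads could be misplaced.

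The promoters of these genes are known to share a short element around the letters CGCT, at which the insulator protein CTCF binds and a promoter is chosen. The longest run of letters that the promoters of PCDHB2 and PCDHB9 share is GGTGGCGCTGCAG, 13 bases that contain CGCT. These 2 genes were chosen after their values and sequences had been seen. They hold the 13 bases by construction and are counted in the shares that follow. On either strand the 13 bases occurred in 14 (0.051%) of the 27305 RefSeq promoters (GRCh38.p14), of which 10 were among the 14 protocadherin beta promoters of the table. Of the 7 genes that passed the filter 6 hold it, all but PCDHB14. The 61 bases around it are shown for these 6, on the plus strand, with the element in capitals, because they are a feature that these neighbouring genes share.
PCDHB2, chr5:141094531-141094591: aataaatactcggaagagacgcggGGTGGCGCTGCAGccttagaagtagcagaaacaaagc
PCDHB16, chr5:141182297-141182357: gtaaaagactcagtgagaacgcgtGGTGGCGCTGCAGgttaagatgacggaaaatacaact
PCDHB9, chr5:141187061-141187121: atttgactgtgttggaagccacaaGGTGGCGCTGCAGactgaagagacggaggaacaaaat
PCDHB10, chr5:141192286-141192346: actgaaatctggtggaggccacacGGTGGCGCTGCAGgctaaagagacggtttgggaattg
PCDHB13, chr5:141213852-141213912: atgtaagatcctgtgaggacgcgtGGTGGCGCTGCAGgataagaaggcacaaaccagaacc
PCDHB15, chr5:141245301-141245361: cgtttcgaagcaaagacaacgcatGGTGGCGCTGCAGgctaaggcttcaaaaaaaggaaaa
The element also stands in PCDHB4, PCDHB5, PCDHB8 and PCDHB12, which were below the filter, with 8, 5, 0 and 2 counts in the pair. So it did not separate the genes with counts from those without. The protocadherin gamma genes next to this cluster share their last exons, so their counts are not independent. Of 22 that passed, 21 were higher than in Het_6 and Het_7 and 0 were called against the 5 libraries.

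Another run on the higher side lay in the epidermal differentiation region of chromosome 1 (151982915 to 153634340) and held S100 calcium-binding proteins. S100A10 had 51.7 and 44.5 CPM in the pair, 22.3 and 25.6 CPM in WT_3 and Het_6, 6.15 CPM in Het_7 and 2.94 and 0.105 CPM in WT_4 and WT_5 (2.06, SE 1.04). S100A11 had 23.1 and 22.1 CPM against 0 to 7.14 CPM (3.01, and 3.75 without Het_6). S100A13 had 10.8 and 9.96 CPM against 1.66 to 3.497 CPM (1.84, SE 0.26), and S100A6 3.34 and 1.60 CPM against 0 to 0.977 CPM (2.39, and 1.79 without Het_9). The 5 libraries spread widely for S100A10 and S100A11, and less for S100A13.

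On the lower side, 5 neighbouring genes on chromosome 1 (157573747 to 157898256) were lower together, FCRL1 to FCRL4 and CD5L. The Fc receptor-like (FCRL) genes encode B cell surface receptors that bind immunoglobulin or adjust antigen receptor signals, and CD5L encodes a secreted protein of macrophages. FCRL3 had 48.3 and 24.5 CPM against 171 to 235 CPM (-2.43, SE 0.26). FCRL1 had 10.03 and 14.1 CPM against 23.8 to 39.3 CPM (-1.27), and FCRL2 3.16 and 2.68 CPM against 6.24 to 13.7 CPM (-1.54). FCRL4 (-2.06, -3.07 without Het_9 and -1.34 without Het_10) and CD5L (-3.60) were lower at under 5 CPM. FCRL5, next to FCRL4, had 16.6 and 26.3 CPM against 25.2 to 28.5 CPM (-0.33) and was not called. The other runs on the lower side included 7 immunoglobulin heavy constant genes from IGHA2 to IGHD (chromosome 14, 105583731 to 105845677) and 6 class II genes from HLA-DRB5 to HLA-DQB2 (chromosome 6, 32517353 to 32763532), whose near-identical members may share reads.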

How the data were processed

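RNA was sequenced from 10 libraries of U2932 clones. The submitters' processing notes list the tools FastQC, STAR, featureCounts and DESeq2, with GRCh38 as build. The deposited values are unnormalized counts for each Ensembl gene. Versions, counting options, strand use and annotation: not given in the sources used here. All 2541 counts of 10000 or more in the table end in 0, so they were rounded. Identifiers were matched to GENCODE release 44 (20804 of 21174; 370 unmatched, 80 of them tested).

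Counts of the 7 libraries were fitted with edgeR 4.0.16 in R 4.3.3 (TMM factors, filterByExpr with a minimum count of 10 and a minimum total of 15, quasi-likelihood fit, prior count 0.125), which left out 8776 genes, 5395 of them without a count. The comparison with the 5 libraries used 2 groups, and that with Het_6 and Het_7 used 3 groups of the same 7 libraries. The SE is the fold change divided by the root of the F statistic. No test was made, since the pair was picked from these values. Fold bounds set 0 at 3 counts over a group, and 95% intervals (exact Clopper-Pearson) cover counting error only. Scripts were tested on simulated data. Library medians used log2(CPM + 0.5).

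The libraries, markers and gene lists were chosen with earlier results of these data known. Named genes are CREBBP, the 6 markers, the 15 per direction with the largest fold changes called in both comparisons with a mean of at least 5 CPM on the high side, and in each list up to 4 called members or, with none called, 2 with the largest differences. PCDHB genes, chromosome segments, EP300, BCL6, BCL2, PAX5, MS4A1, CIITA, ID3, ID4, EGR1, IGHM, IGHA1, IGHG1, IGHV4-39 and others given so in the text were chosen after their values were seen. Values of some genes are not reported here. Alternatives were DESeq2 1.42.0, limma 3.58.1 (voom), DESeq2 and upper-quartile size factors, other filters, another limit and prior count, and leaving out each library.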

Additional observations from a re-analysis of the deposited data

Results flagged for a closer look

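For 152 named genes the level in the 5 comparison libraries was searched for a library far from the other 4. This was so for 12 genes, and chance alone gives about 1 in 20 groups. WT_5 stood below the other 4 for BMP7 (83.6 CPM), MAP4K4 (58.9 CPM), CNN3 (13.7 CPM) and ARHGAP44 (8.88 CPM), each a gene that was lower still in Het_9 and Het_10. WT_4 stood above the others for JUN (4.38 CPM) and PCLO (2.66 CPM), and WT_3 for SLC2A3 (1.45 CPM), still under the pair in each case. For SV2B (0.0554 CPM in WT_4), HOXB4 (0.0554 CPM in WT_4), PCDHB2 (0.043 CPM in Het_6), RIMS2 (0.043 CPM in Het_6) and PCDHB10 (0.146 CPM in Het_7) the library that stood apart held 1 to 3 counts.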

How the results depend on the processing

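Over the 4 counts of called genes and the CREBBP difference, 77 of 83 alternative values stayed close and 6 moved further. Close meant within 1.5 times for a count, and within the pooled spread between libraries for CREBBP. Reversals were not scored for these, and CREBBP stayed below 0 throughout. Without a filter 967 genes were higher against the 5 libraries and 1262 against Het_6 and Het_7. With a log2 limit of 2 the counts were 229 higher and 146 lower against the 5 libraries, and 250 and 198 against Het_6 and Het_7. Leaving out each library in turn gave 531 to 632 higher and 407 to 567 lower genes against the 5 libraries, 666 to 786 and 581 to 734 against Het_6 and Het_7, and -0.71 to -0.32 for CREBBP, which was -0.72 against WT_3, WT_4 and WT_5 alone. Comparisons added after the data were seen, with WT_3, Het_6 and Het_7 alone and with WT_4 and WT_5 alone, gave 640 and 694 higher genes, 616 and 417 lower genes, and -0.23 and -0.80 for CREBBP. For single genes, lists and regions, 2886 of 3284 alternative values stayed close, 398 moved and 0 reversed. A reversal could be scored only for genes called against the 5 libraries, not for lists or regions. Of 133 called genes named, 125 passed the limit without each library in turn. The cause of the moves was not tested. No paired analysis was possible because the heterozygous columns carry numbers that no CREBBP+/+ column shares and no test was made, so the planned fit with a replicate block was not run. The low depth of Het_9 limits genes near 0, where 1 count is worth 0.0928 CPM.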
